A study of Mus musculus with 4 samples.

Results

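The integrated stress response and its mitochondrial arm were followed through 10 genes, Atf4, Atf5, Ddit3, Gdf15, Fgf21, Trib3, Chac1, Asns, Sesn2 and Psat1, out of 22911 genes with a symbol on the array. All probes carrying these symbols were taken, which gave 14 probes, with 2 probes each for Atf4, Atf5, Asns and Psat1 and 1 probe for each of the other genes. The RNA came from pancreatic islet cells of 60-week-old C57BL/6 littermates, with no transgene or deletion named in the labels. The animals are labeled male, which the sex-linked probes given below did not bear out. The cells were dispersed to single cells and kept with a peptide in culture. 2 single-color Agilent arrays carried cells given MOTS-c, a short peptide encoded in a ribosomal RNA gene of the mitochondrial genome, and 2 carried cells given a scrambled peptide of the same amino acids, both at 10 μM for 24 h. The labels do not say which littermate gave which array, so p-values measure only the spread between these samples, which may in part be technical. Arrays are named by treatment and the number in their titles, as scrambled 1, scrambled 2, MOTS-c 2 and MOTS-c 3.

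The integrated stress response is the program by which cells slow translation when proteins misfold, amino acids run short or mitochondria fail. A set of kinases phosphorylates the initiation factor eIF2, which lowers translation in general but lets the transcription factor ATF4 be made, and ATF4 then switches on genes for amino acid supply, redox defense and, under prolonged stress, cell death. β-Cells carry a heavy load of secreted protein and depend on this program. Much of the control of ATF4 and ATF5 acts on translation, which an array of mRNA does not read.

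ATF4 binds a composite DNA element together with C/EBP proteins, and the core of this element, TGATGNAA on either strand, was looked for around each start site in RefSeq (assembly GRCm38.p6), from 250 bases before the start to 50 after it. All 10 genes had such a window, and 4 of them held the core, against 4.51% of the 27025 genes with a window. The stretches of Chac1, Asns and Fgf21 before the start are shown whole because they hold the core ahead of the start, and Trib3 is shown over 30 bases because its core lies after the start. Each is written on the strand of the gene with the core in capitals. Chac1 is on the plus strand and the others are on the minus strand.
Chac1, chr2:119350992-119351241: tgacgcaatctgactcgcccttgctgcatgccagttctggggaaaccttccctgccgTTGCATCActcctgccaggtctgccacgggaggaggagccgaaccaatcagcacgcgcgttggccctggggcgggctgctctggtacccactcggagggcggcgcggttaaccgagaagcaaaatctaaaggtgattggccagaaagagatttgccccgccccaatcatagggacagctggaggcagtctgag
Asns, chr6:7693210-7693459: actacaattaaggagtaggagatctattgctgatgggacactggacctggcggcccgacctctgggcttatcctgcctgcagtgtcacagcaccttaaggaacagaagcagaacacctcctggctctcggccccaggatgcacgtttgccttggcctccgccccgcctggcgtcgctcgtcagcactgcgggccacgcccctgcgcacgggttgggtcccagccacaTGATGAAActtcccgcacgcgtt
Fgf21, chr7:45615491-45615740: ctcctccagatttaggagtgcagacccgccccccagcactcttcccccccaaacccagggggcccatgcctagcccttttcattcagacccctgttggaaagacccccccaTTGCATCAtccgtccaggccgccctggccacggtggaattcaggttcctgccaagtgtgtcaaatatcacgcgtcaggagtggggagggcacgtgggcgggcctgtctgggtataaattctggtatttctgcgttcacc
Trib3, chr2:152344028-152344057: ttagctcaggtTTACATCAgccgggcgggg
Counted from the start site, the core ran from -193 to -186 in Chac1, from -23 to -16 in Asns, from -139 to -132 in Fgf21 and from 15 to 22 in Trib3. In Asns it read in the direction of the gene and in the other three genes on the opposite strand. The remaining 6 genes did not hold these letters in the windows searched.

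Before the results, the labels were checked against the arrays. The endocrine markers of islets were bright, with log2 signals of 18.1 for Ins1 and 15.6 to 15.7 for Gcg, while 3 of 6 acinar, 3 of 4 duct, 3 of 5 mesenchymal, 2 of 4 endothelial and 3 of 5 immune markers did not pass the filter on dim probes. The animals are labeled male, but 7 probes of the Y-linked Ddx3y, Eif2s3y, Kdm5d and Uty were not well above background in any of 28 pairs of a probe and an array, whereas the probe of Xist passed on each of the 4 arrays. MOTS-c 3 stood farthest from the rest, with correlations over all probes of 0.992 with scrambled 1, 0.990 with scrambled 2 and 0.993 with MOTS-c 2, against 0.995 between the scrambled arrays. MOTS-c 2 correlated at 0.994 with scrambled 1 and at 0.995 with scrambled 2. Both values were above its correlation with MOTS-c 3, so by this measure the arrays did not group by treatment. Values without MOTS-c 3 are given for some of the genes and list medians. 61.6% to 65.0% of the gene spots of an array were well above background and 0 were saturated.

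With MOTS-c, the stress response genes were slightly lower or close to the scrambled level, and none of them passed an adjusted p under 0.05 in limma. Gdf15 and Fgf21, the secreted members and also the dimmest ones, had the largest differences, that of Fgf21 resting on scrambled 1. The other genes differed by at most 0.24 on the log2 scale at their brightest probe. All 10 genes, each read through its brightest probe, had a lower mean with MOTS-c, as they did under the 75th percentile shift, while 8 of 10 were lower after the normexp background correction and 7 of 10 without MOTS-c 3. The MOTS-c arrays were the lower ones without any overlap in 7 of the 10 genes, against 18.6% of all 35087 probes tested, and in 0 genes they were the higher ones, against 19.4% of all probes. The median difference of the 10 genes was -0.14 on the log2 scale beside 0.01 over all probes, of which 47.1% were lower with MOTS-c. The 10 genes share the same 4 arrays and many share a regulator, so they are not independent readings, and these counts were not tested as a set. In RNA from whole islet cells, fewer cells of a type and less RNA per cell cannot be told apart.

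**Figure D1:**
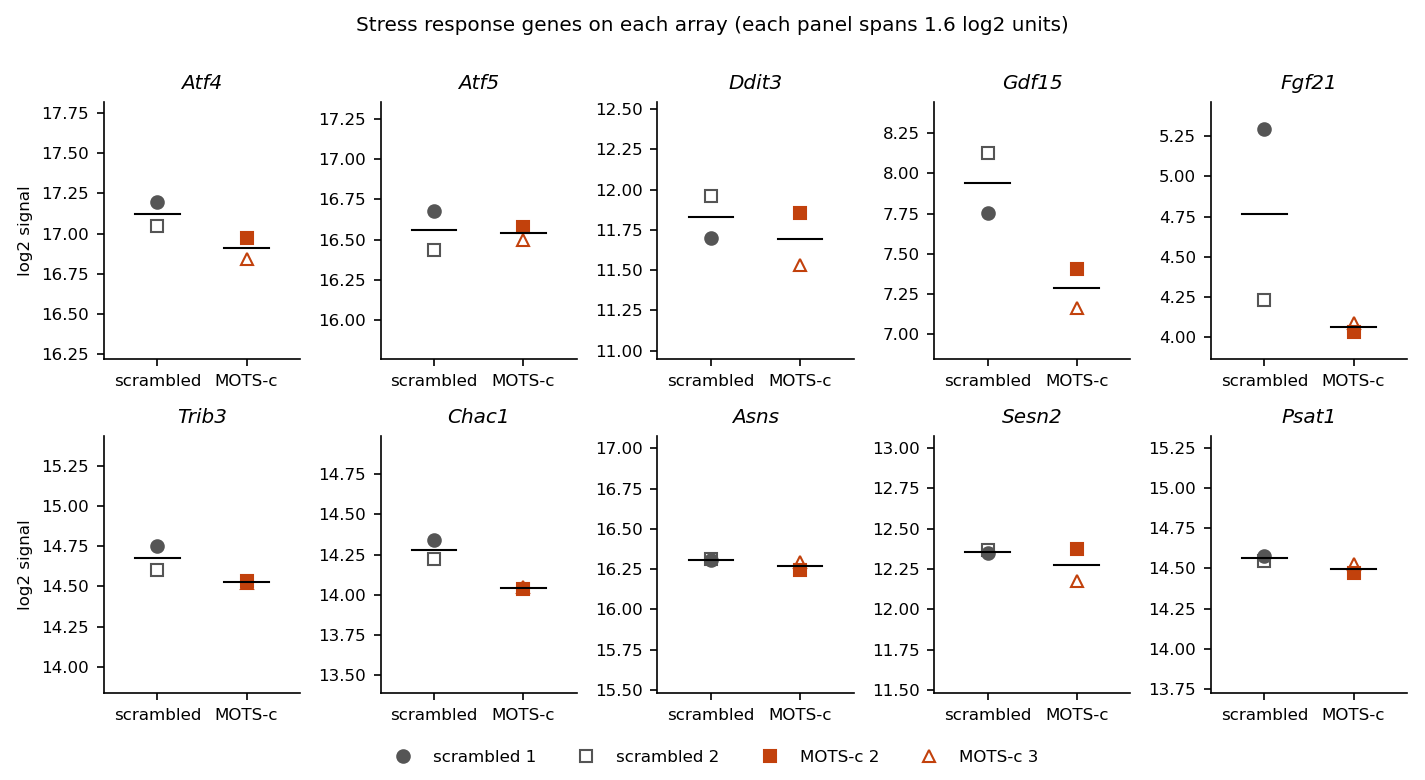
Quantile normalized log2 signal (y axis) of the brightest probe of each of the 10 genes on scrambled 1, scrambled 2, MOTS-c 2 and MOTS-c 3, with 1 panel a gene, a line at each group's mean and the same span of log2 units in every panel. Gdf15 lay at 7.75 and 8.12 against 7.41 and 7.17, the high Fgf21 value is that of scrambled 1 alone, and Asns and Psat1 differed by at most 0.07 between group means.

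By the weaker measure of an unadjusted limma p under 0.05, 1 of the 14 probes, that of Gdf15, was lower and 0 were higher with MOTS-c. Over all probes this level was met by 7.85%, of which 4.82% of all probes were lower and 3.03% higher, so 1 of 14 is close to the background share. At an adjusted p under 0.05 limma called 0% of all probes, and the smallest adjusted p was 0.474. The methods' t-test gave 2312 probes at an unadjusted p under 0.05 and 1 after Benjamini-Hochberg adjustment, and 0 member probes at either level. An exact permutation test of 2 arrays against 2 cannot give a two-sided p below 0.333.

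Of the transcription factors, ATF4 is the central effector of the response. Atf4 had log2 signals of 17.20 and 17.05 on scrambled 1 and 2 and of 16.97 and 16.84 on MOTS-c 2 and 3 at its brightest probe (A_55_P1979728). The groups did not overlap, and the difference was -0.22 ± 0.13 (SE, n = 2 a group, adjusted p = 0.760 in limma, 95% interval -0.57 to 0.14). At its other probe (A_52_P139727) the values were 12.80 and 12.71 against 12.80 and 12.63, which overlapped, with a difference of -0.04 ± 0.13. The 2 probes of Atf4 therefore did not give the same size of difference, although each lay within the interval of the other.

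ATF5 is a close relative of ATF4 whose translation is controlled in a similar way and which has been tied to the unfolded protein response of mitochondria. Atf5 was at 16.68 and 16.44 with the scrambled peptide and at 16.58 and 16.50 with MOTS-c (A_55_P2105858). Both MOTS-c values lay between the scrambled ones, and the difference was -0.02 ± 0.14 (SE, adjusted p = 0.988 in limma), which became 0.07 after the normexp correction and 0.10 without scrambled 1. The other probe (A_51_P269216) gave 16.11 and 15.82 against 15.80 and 15.72, without overlap and with a difference of -0.21 ± 0.15.

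DDIT3, also known as CHOP, takes the response toward cell death when stress persists. Ddit3 was at 11.70 and 11.96 with the scrambled peptide and at 11.85 and 11.53 with MOTS-c (A_52_P533146). The groups overlapped, since MOTS-c 2 lay between the scrambled arrays and only MOTS-c 3 lay below them. The difference was -0.14 ± 0.18 (SE, adjusted p = 0.894 in limma, 95% interval -0.61 to 0.34), and without MOTS-c 3 it was 0.02.

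Trib3 and Chac1 are downstream targets of ATF4 and DDIT3 with windows that held the core shown above. TRIB3 is a pseudokinase that feeds back on the response and on insulin signaling through AKT. Trib3 gave 14.75 and 14.60 on the scrambled arrays against 14.53 and 14.52 on the MOTS-c arrays (A_55_P2009988). The MOTS-c arrays lay close together below the scrambled ones, with a difference of -0.15 ± 0.13 (SE, adjusted p = 0.821 in limma), or -0.08 without scrambled 1.

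CHAC1 breaks down glutathione and is widely used as a readout of ATF4 activity. Chac1 gave 14.34 and 14.22 against 14.04 and 14.05 (A_51_P134812), again without overlap. Its difference of -0.24 ± 0.12 (SE, adjusted p = 0.723 in limma, 95% interval -0.56 to 0.09), a fold of 0.849, was the largest among the 8 intracellular members. Its sign held under all 12 alternatives, which ran from -0.29 to -0.18.

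ASNS makes asparagine and PSAT1 carries out a middle step of serine synthesis, and both are classic targets of amino acid shortage. Asns was at 16.31 and 16.31 with the scrambled peptide and at 16.25 and 16.29 with MOTS-c (A_55_P1959748). The difference of -0.04 ± 0.12 (SE, adjusted p = 0.961 in limma, 95% interval -0.35 to 0.27) was small although the groups did not overlap, and the other probe (A_66_P133222) went the other way, at 12.47 and 12.62 against 12.67 and 12.55, a difference of 0.07 ± 0.13 with overlap. Psat1 was at 14.58 and 14.55 against 14.47 and 14.53 (A_55_P2052290), a difference of -0.07 ± 0.12 (SE, adjusted p = 0.928 in limma) that was 0.003 after the normexp correction. Its dimmer probe (A_66_P121495) overlapped between groups, at 9.61 and 9.48 against 9.63 and 9.40. For both enzymes the limma intervals leave out a change as large as 1.5-fold in either direction, but they rest on 2 arrays a group. Under the 75th percentile shift the differences were -0.11 for Asns and -0.13 for Psat1.

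SESN2 senses leucine and restrains mTORC1. Sesn2 was at 12.35 and 12.37 with the scrambled peptide and at 12.38 and 12.18 with MOTS-c (A_51_P161354). MOTS-c 2 was the highest of the 4 arrays here and MOTS-c 3 the lowest, and the difference was -0.08 ± 0.13 (SE, adjusted p = 0.922 in limma), or 0.02 without MOTS-c 3.

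GDF15 is a hormone released by stressed cells that lowers appetite through its receptor GFRAL in the hindbrain. Gdf15 was at 7.75 and 8.12 on scrambled 1 and 2 and at 7.41 and 7.17 on MOTS-c 2 and 3 (A_55_P1960735), that is 7.94 ± 0.26 against 7.29 ± 0.17 (SD, n = 2). The groups did not overlap, and the difference between their means was larger than the gap between the arrays of either group. The difference was -0.65 ± 0.19 (SE, 95% interval -1.14 to -0.16), a fold of 0.637, with an adjusted p of 0.544 in limma, and 2.69% of all probes had a lower difference. The spot was 6.13 and 9.19 times its local background on the scrambled arrays and 4.86 and 5.02 times on the MOTS-c arrays. Without scrambled 2 the difference was -0.47 and without MOTS-c 3 it was -0.53, and in both cases the unadjusted limma p was no longer under 0.05. After the normexp correction it was -0.43.

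FGF21 is a metabolic hormone that acts through FGF receptors with the coreceptor β-klotho and is raised by mitochondrial stress in several tissues. Fgf21 was at 5.30 and 4.23 on scrambled 1 and 2 and at 4.03 and 4.09 on MOTS-c 2 and 3 (A_52_P235347). Scrambled 1 was high and the other 3 arrays lay within a narrow range, so that the difference of -0.70 ± 0.37 (SE, adjusted p = 0.724 in limma, 95% interval -1.67 to 0.27) rested on that array: it was -0.17 without scrambled 1 and -1.23 without scrambled 2, the latter at an unadjusted limma p under 0.05. The probe was dim, at 2.13 and 1.84 times the local background on the scrambled arrays and 1.39 times on each MOTS-c array, and after the normexp correction the difference was -0.26.

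**Figure D2:**
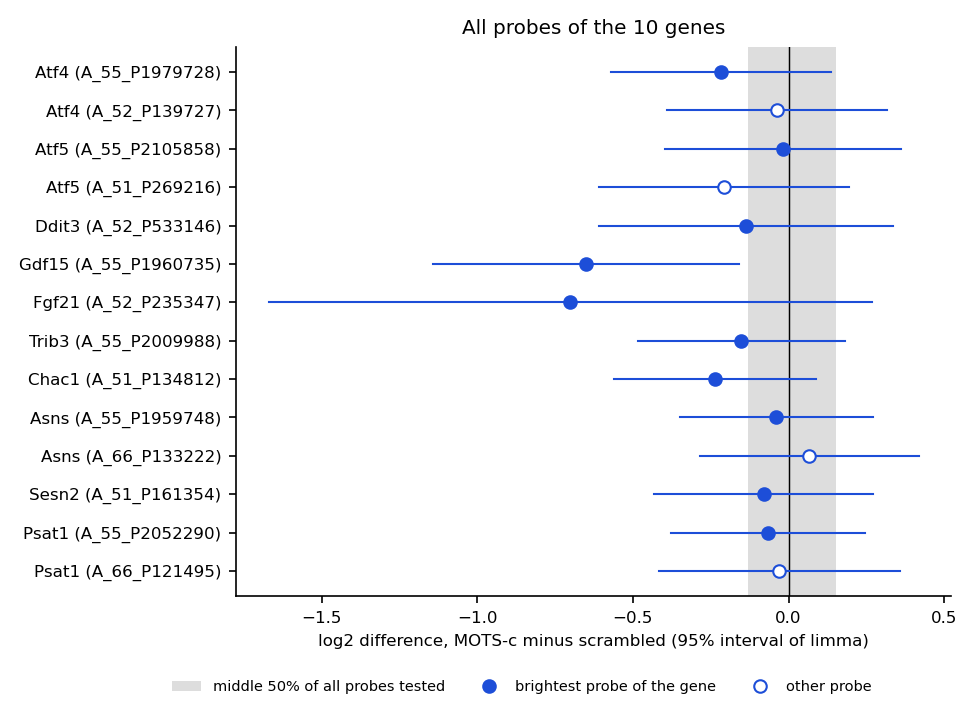
Log2 difference of MOTS-c minus scrambled (x axis) for all 14 probes of the 10 genes with the 95% interval of limma, filled for the brightest probe of a gene and open for its other probe. The grey band holds the middle 50% of all probes, from -0.13 to 0.15, and only the interval of Gdf15 leaves out 0.

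The arrays of a group did not hold the same place in the order of levels. Scrambled 1 was the highest array in 6 of the 10 genes, scrambled 2 in 3, MOTS-c 2 in 1 and MOTS-c 3 in 0. MOTS-c 3 was the lowest in 5 genes, MOTS-c 2 in 4 and scrambled 2 in 1. Relative to the scrambled mean, the median of the 10 genes was 0.04 on scrambled 1, -0.04 on scrambled 2, -0.12 on MOTS-c 2 and -0.20 on MOTS-c 3. The members differed between the scrambled arrays by a median of 0.148 on the log2 scale and between the MOTS-c arrays by 0.0711, beside 0.164 and 0.189 over all probes. The median difference between treatments was thus about as large as the gap between the scrambled arrays.

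**Figure D3:**
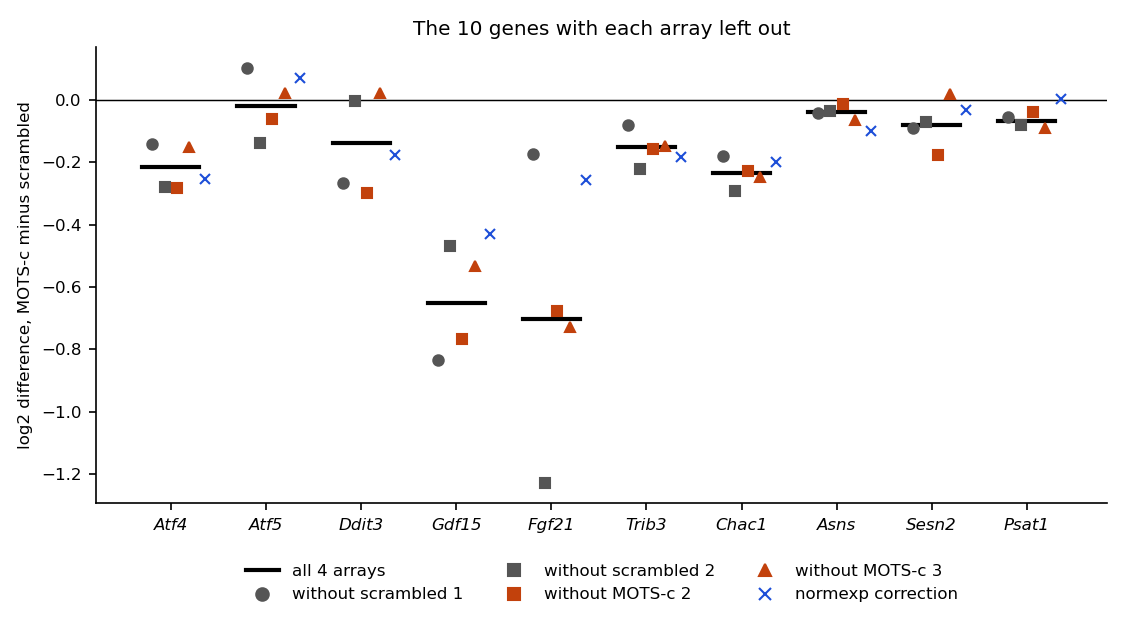
Log2 difference of MOTS-c minus scrambled (y axis) of each of the 10 genes with all 4 arrays (bar), without each array in turn and after the normexp correction. Gdf15 stayed between -0.83 and -0.43, Fgf21 ran from -1.23 to -0.17, and Atf5, Ddit3, Sesn2 and Psat1 crossed 0.

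The genes around the members were read from 8 lists, 80 genes in all, of which 77 were tested. 5 of the 77 genes were lower and 2 higher at an unadjusted limma p under 0.05, beside 4.82% and 3.03% of all probes. Without overlap of the groups, MOTS-c was lower in 25 genes and higher in 13, beside 18.6% and 19.4% of all probes. The median of the 77 genes was -0.03.

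Upstream of ATF4 stand the kinases and translation factors. Of 15 genes tested, 0 were at an unadjusted limma p under 0.05 in either direction. By mean, 10 were higher and 5 lower, where 47.1% of all probes were lower. Without overlap of the groups, MOTS-c was higher in 6 of them and lower in 1, beside 19.4% and 18.6% of all probes. The median was 0.08, or 0.02 without MOTS-c 2 and 0.03 under the 75th percentile shift. Eif2ak3, which encodes the kinase PERK of the endoplasmic reticulum, was at -0.12 ± 0.15 (SE of the log2 difference), and Eif2ak1, the kinase HRI that relays mitochondrial stress through DELE1, was at 0.02 ± 0.18. The largest difference was that of Eif2ak2, the kinase PKR of double-stranded RNA, at 0.39 ± 0.17, followed by Eif2ak4, the amino acid sensor GCN2, at 0.28 ± 0.15. Of the mitochondrial relay, Dele1 was at -0.20 ± 0.12 and Oma1, the protease that cleaves DELE1, at 0.19 ± 0.15. Ppp1r15a, the stress-induced eIF2 phosphatase subunit GADD34 and itself a target of ATF4, was at -0.17 ± 0.21.

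Among ATF4 partners and other targets, 2 of 9 genes were lower and 1 was higher at an unadjusted limma p under 0.05. Over all probes the shares were 4.82% lower and 3.03% higher. The median of the 9 genes was -0.14. Nupr1, a small stress-induced chromatin protein, had log2 signals of 11.04 and 10.67 with the scrambled peptide and 9.83 and 9.58 with MOTS-c, a difference of -1.15 ± 0.19 (SE, adjusted p = 0.474 in limma). Adm2, a peptide hormone of the calcitonin family, was at 8.20 and 8.19 against 7.47 and 7.18, a difference of -0.87 ± 0.15 (SE, adjusted p = 0.474 in limma). In both genes the groups were far apart compared with the gaps inside them. Atf3, a transcription factor induced early by many stresses, went the other way, at 10.00 and 9.97 against 10.58 and 10.46, a difference of 0.53 ± 0.12 (SE, adjusted p = 0.515 in limma). Stc2, a secreted glycoprotein, was at -0.84 ± 0.44, with MOTS-c 3 alone at 6.82, and Cebpb, a partner of ATF4 on DNA, was at -0.33 ± 0.19.

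Nupr1 and Atf3 both held the core at the same distance from the start, from -110 to -103 and on the strand opposite to the gene. Their differences went in opposite directions, and binding of ATF4 was not tested. The 30 bases around the core are shown because of the shared position. They are on the strand of each gene, which is the minus strand in both, with the core in capitals.
Nupr1, chr7:126625562-126625591: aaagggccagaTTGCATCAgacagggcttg
Atf3, chr1:191183425-191183454: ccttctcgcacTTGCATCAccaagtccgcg
Of the 61 list genes with a window, 11 held the core, against 4.51% of all genes with a window. Gdf15, Adm2, Slc6a9 and Shmt2 did not hold these letters in their windows.

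Among genes for amino acid supply, 7 of 8 enzymes and 7 of 9 transporters tested had a lower mean with MOTS-c, beside 47.1% of all probes, and this was not tested as a set. Of the enzymes of serine, one-carbon, proline and cysteine synthesis, 8 of 9 were tested. At an unadjusted limma p under 0.05, 1 was lower and 0 were higher, beside 4.82% and 3.03% of all probes. The median of these enzymes was -0.20, or -0.33 without MOTS-c 2 and -0.11 without MOTS-c 3. Shmt2, the mitochondrial serine hydroxymethyltransferase, was at 12.64 and 12.53 with the scrambled peptide and 12.28 and 12.13 with MOTS-c, a difference of -0.38 ± 0.13 (SE, adjusted p = 0.600 in limma), while its dim second probe overlapped between groups at -0.20 ± 0.25. Phgdh, which opens the serine pathway ahead of Psat1, was at -0.28 ± 0.13, and Psph, which closes it, at -0.02 ± 0.12.

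Of the 9 amino acid transporters, 2 were lower and 1 was higher at an unadjusted limma p under 0.05. Over all probes the shares were 4.82% lower and 3.03% higher. The median of the transporters was -0.19, or -0.09 without MOTS-c 3. Slc6a9, the glycine transporter GlyT1, was at 13.32 and 13.11 with the scrambled peptide and 12.51 and 12.32 with MOTS-c, a difference of -0.80 ± 0.15 (SE, adjusted p = 0.474 in limma). Slc7a3, a carrier of arginine and lysine, was at 12.97 and 12.78 against 12.42 and 12.19, a difference of -0.57 ± 0.15 (SE, adjusted p = 0.539 in limma). Slc1a5, the neutral amino acid exchanger that carries glutamine, was higher, at 9.62 and 9.73 against 10.13 and 9.96, a difference of 0.37 ± 0.13 (SE, adjusted p = 0.615 in limma). The cystine carrier Slc7a11, at -0.09 ± 0.12, and the leucine carrier Slc7a5, at -0.22 ± 0.12, differed less.

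**Figure D4:**
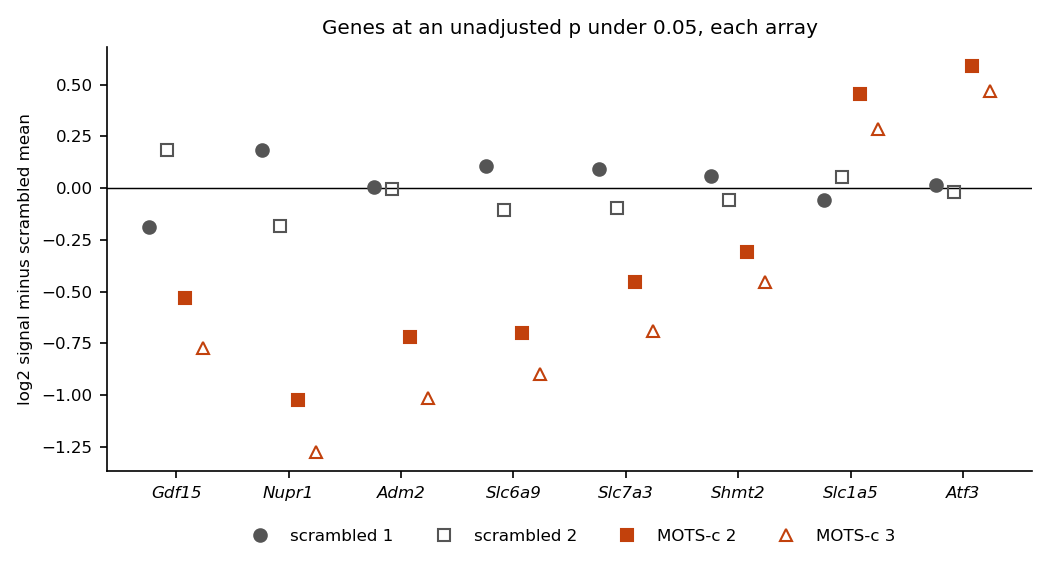
Log2 signal of each array minus the scrambled mean (y axis) for Gdf15 and the 7 list genes at an unadjusted limma p under 0.05. Both MOTS-c arrays lay outside the scrambled arrays in every gene drawn, and MOTS-c 3 lay below MOTS-c 2 in all 8 genes.

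The tRNA synthetases, which ATF4 raises in concert with amino acid supply, had 9 of 13 lower, beside 47.1% of all probes. At an unadjusted limma p under 0.05 there were 0, and the median was -0.06. That median was -0.14 without scrambled 2, -0.17 without MOTS-c 2 and -0.02 without MOTS-c 3. They ran from -0.28 ± 0.13 for Sars to 0.19 ± 0.14 for Eprs. The mitochondrial chaperones and proteases, the usual readout of the unfolded protein response of mitochondria, had differences close to 0. Of 13 genes 6 were lower and 7 higher, 0 were at an unadjusted limma p under 0.05, and the median was 0.00, or -0.07 under the 75th percentile shift and -0.06 to 0.05 with an array left out. Hspd1, which encodes the chaperone HSP60, was at 0.09 ± 0.15, Hspa9, the mortalin gene, at -0.02 ± 0.12 and the protease gene Lonp1 at 0.00 ± 0.12. The extremes were Clpp, a protease subunit, at -0.18 ± 0.15 and Trap1, a mitochondrial HSP90, at 0.15 ± 0.12.

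**Figure D5:**
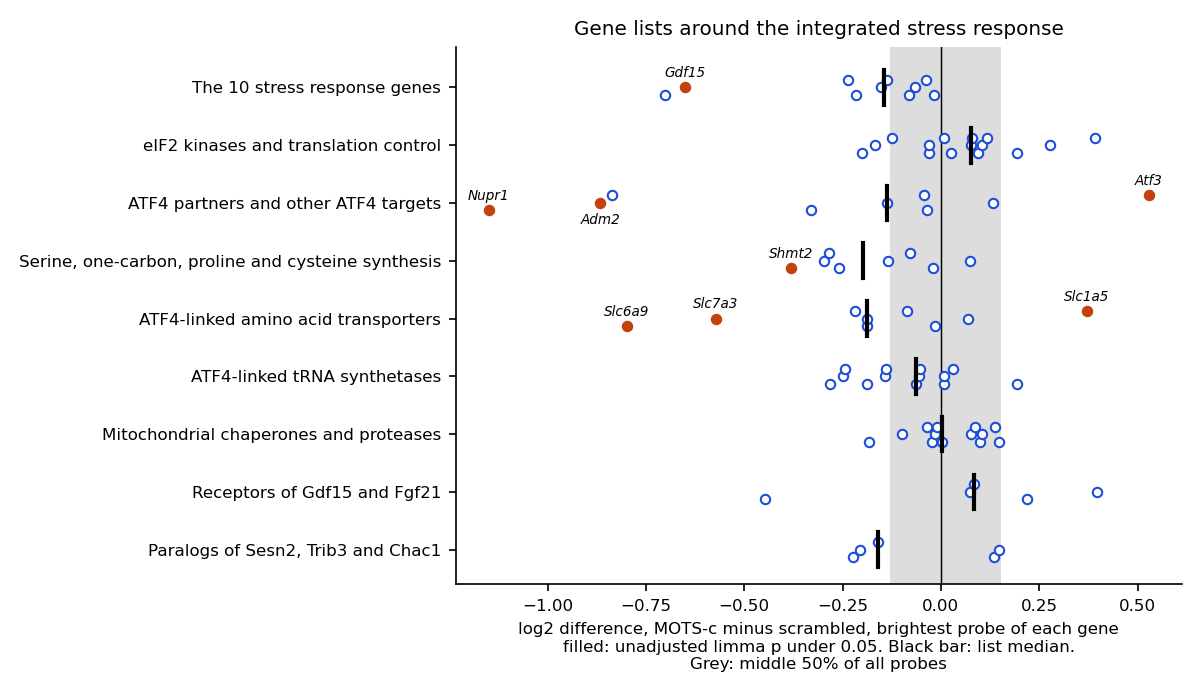
Log2 difference of MOTS-c minus scrambled (x axis) for the brightest probe of each gene in the 10 stress response genes and in 8 lists around them, filled at an unadjusted limma p under 0.05, with the list median as a bar and the middle 50% of all probes in grey. The transporters and the ATF4 partners spread widest, from -1.15 for Nupr1 to 0.53 for Atf3, and the mitochondrial chaperones and proteases stayed between -0.18 and 0.15.

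Of the receptors for the secreted members, Gfral and its signaling partner Ret did not pass the filter on dim probes. The 5 receptor genes tested for FGF21 had 0 at an unadjusted limma p under 0.05, with a median of 0.08 that ran from 0.00 to 0.20 with an array left out, Fgfr4 at -0.45 ± 0.22 and Klb, which encodes β-klotho, at 0.40 ± 0.18. The paralogs of Sesn2, Trib3 and Chac1 lay between -0.22 ± 0.15 for Sesn3 and 0.15 ± 0.21 for Chac2, with 0 of 5 at that level, and their median of -0.16 was -0.05 without scrambled 2, -0.09 without scrambled 1 and -0.02 without MOTS-c 3.

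Some cell type markers differed between the treatments too. Of 5 mesenchymal markers 2 passed the filter, Acta2 and Pdgfra, while Col1a1, Col3a1 and Pdgfrb did not. The summed linear signal of Acta2 and Pdgfra was 4945 to 5502 on the scrambled arrays and 4708 to 4722 on the MOTS-c arrays. It is mostly that of Acta2, which was at -0.14 ± 0.13 (SE of the log2 difference). Pdgfra was at -1.05 ± 0.33, on a dim probe at 1.74 to 3.46 times the local background. Of the alpha cell markers, Irx2 was at 0.68 ± 0.16, Gcg at 0.11 ± 0.12 and Ttr at -0.27 ± 0.22. The probe of Irx2 was dim, at 1.66 to 1.89 times the local background. The 8 beta cell markers overlapped in sum, at 857920 to 885783 on the scrambled arrays and 849545 to 861836 on the MOTS-c arrays. That sum rests on the brightest probes, such as Ins2 and Ins1, which quantile normalization holds at nearly fixed levels. It therefore cannot show whether beta cell content was alike. By gene, 5 of the 8 were lower and 3 higher, without overlap in 3 each way. Among them were Pdx1 at -0.28 ± 0.13, Mafa at 0.16 ± 0.12 and the dim probe of Slc2a2 at -1.33 ± 0.14. The part of these cells in the differences of Gdf15 and the other genes was not tested.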

How the data were processed

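Gene expression in islet cells was read on 4 single-color Agilent arrays on 1 slide, 2 for each peptide, grouped by the treatment given in the labels. The authors labeled amplified RNA with Cy3, scanned the arrays and deposited the processed intensity of each spot, background corrected by Feature Extraction 11.0.1.1 and not normalized between arrays. The authors also deposited a table of the same intensity values in rounded form. After control spots and spots marked as outliers had been removed, intensities were put on the log2 scale and averaged by probe. A probe was kept if it was well above background on 2 or more of the 4 arrays, and the quantile method brought the arrays to one distribution. This filter stands in for a flag that the methods name without defining it. limma 3.58.1 in R 4.3.3 tested all 35087 probes with Benjamini-Hochberg adjustment, on 2 residual degrees of freedom to which limma added 2.64. The fit was checked on simulated data.

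Symbols came from the RefSeq gene table of GRCm38.p6, looked up by the transcript identifier given for each probe of the array. The array is annotated on another build, so no probe coordinates are given. The brightest probe of a gene stood for it, and all probes of the 10 genes are given. List genes named are the extremes of a list, those at an unadjusted p under 0.05 and those with a defining role. The dim second probe of Shmt2, the marker and sex-linked genes and Stc2, Cebpb, Ppp1r15a, Slc7a11, Slc7a5, Phgdh, Psph and Oma1 are given beyond this rule. Some marker results are not reported here. The members and lists were chosen with earlier results of these data known. Alternatives were a 75th percentile shift, the normexp correction with an offset of 50 on median signals, the authors' rounded values, no filter, a filter on all 4 arrays, each array left out, the methods' t-test, limma with an intensity trend and the mean over a gene's probes. The number of arrays limits the precision.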

Additional observations from a re-analysis of the deposited data

How the results depend on the processing

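No paired analysis was possible because the labels do not say which littermate gave which array. The median of the 10 genes stayed below 0 under all alternatives that recompute it, from -0.20 to -0.12. The number of member probes at an unadjusted limma p under 0.05 was 1 in the chosen processing, where 7.85% of all probes met this level. It was 2 without a filter on dim probes (Chac1 and Gdf15), beside 8.18% of all probes. With an intensity trend it was 3 (Atf4, Chac1 and Gdf15), beside 8.39% of all probes. The methods' t-test gave 0 member probes at an unadjusted p under 0.05, beside 6.59% of all probes. Signs turned for Asns (0.0139 as the mean over its probes), Atf5 (0.0715) and Psat1 (0.00329) after the normexp correction, and with an array left out for Atf5 (-0.14 to 0.10), Ddit3 (-0.30 to 0.0230) and Sesn2 (-0.18 to 0.0191). The cause was not tested. Of the 77 list genes, 7 at that level became 14 after normexp, 12 without the filter, 12 with the trend and 4 to 10 with an array left out, where 4 was without scrambled 1. Nupr1, Adm2 and Slc6a9 met it in 11 of 11 alternatives, Atf3 in 10, Slc7a3 in 8, Slc1a5 in 7 and Shmt2 in 6. Over all probes, 1239 also differed by 1.5-fold, 852 of them lower, and this became 406 after normexp (331 lower), 457 in the t-test and 1374 to 3264 with an array left out, the highest being without MOTS-c 2. Dim probes such as those of Fgf21 and Gdf15 are limited by signal over background. Fits without an array assume that the array left alone in its group varies like the others.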
